A study of Mus musculus with 6 samples.

Results

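Chromatin accessibility was described around 5 genes, Thbs1, Serpine2, Mgll, Cd200r3 and Lrg1, that the study lists as upregulated in RNA by MMF. All peaks that overlapped the gene body or the 50 kb on either side (mm10, GENCODE M21 gene models) were taken, which gave 88 of 112852 merged peak regions. The genes were chosen from RNA values that are not in the files analysed here, so their RNA was not tested. The regions were 5 around Thbs1, 19 around Serpine2, 32 around Mgll, 18 around Cd200r3 and 14 around Lrg1. The genes are grouped as coding for surface and secreted proteins. This holds for Thbs1, Serpine2 and Lrg1, which are secreted, and for Cd200r3, a surface receptor, but Mgll codes for an intracellular, membrane-associated lipase.

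ATAC-seq reads out open chromatin through the insertion of adapters by the Tn5 transposase. Open sites mark promoters at gene starts and enhancers, often far from the gene, where transcription factors bind. In the myeloid lineage, accessible enhancers accumulate around genes of granulocytes and macrophages as progenitors mature, and factors of the C/EBP and PU.1 families are known for their part in it.

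The 6 samples were L-GMPs (leukemic granulocyte-macrophage progenitors), the population that the study uses as leukemia stem cells (LSCs) of MLL-AF9-driven murine AML, with the genotype entered as WT in the labels. LSCs grew with 20% FBS and 10 ng/ml mouse IL3, and 3 control samples without MMF were set against 3 samples treated with MMF for 24 h, the time in the labels (the study's own text gives more than one time and concentration, so no concentration is printed). MMF (mycophenolate mofetil) blocks IMPDH, an enzyme of guanine nucleotide synthesis. The cells carry a retroviral MLL-AF9 oncogene in both groups, and nothing in the labels says whether the samples of a group came from separate cultures or animals, so p-values measure the spread between these samples, which may be technical.

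The height of a peak is given as a scaled summit height, the number of reads over the summit divided by the reads expected there from the genome-wide background of the sample. It is relative to depth and has no other unit. A list had a median of 14 to 19 reads over a summit and the lowest peaks had 4 or 5 reads, a scaled height between 5.49 and 6.45, so a region with no peak in a list was below the calling threshold and is not shown to be closed. The number of peaks per list was 58496 to 63911 in control and 80893 to 86556 with MMF. Over the 41182 regions with a peak in all 6 lists, the median log2 difference, MMF minus control, was 0.17, or 1.12-fold. Centring each sample on the median of these regions lowered every difference by 0.35 on the log2 scale, so both scalings are given where they differ. This shift was larger than the median difference, so the median centred difference was negative. A fold relative to the sample medians is therefore not a fold relative to the typical shared region.

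The sequences shown are the 3 regions gained with MMF, the 4 regions called higher both with and without centring, and the Thbs1 promoter, the only promoter of the 5 genes called higher on scaled heights. Each is 200 bp around the summit, read from GRCm38.p6 on the plus strand. Distances are from the first annotated protein-coding start of the gene, with a plus sign downstream. Capitals mark a consensus match on either strand to C/EBP (TTGCNNAA), AP-1 (TGANTCA), RUNX (AACCACA) or KLF (CCNCNCCC).
Thbs1 promoter (chr2:118111155-118111354): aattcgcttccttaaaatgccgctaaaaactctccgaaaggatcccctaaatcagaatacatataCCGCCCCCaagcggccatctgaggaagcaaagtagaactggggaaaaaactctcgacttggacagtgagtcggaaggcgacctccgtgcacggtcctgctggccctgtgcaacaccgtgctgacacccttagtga
Thbs1 upstream, 9.3 kb from the start (chr2:118102454-118102653): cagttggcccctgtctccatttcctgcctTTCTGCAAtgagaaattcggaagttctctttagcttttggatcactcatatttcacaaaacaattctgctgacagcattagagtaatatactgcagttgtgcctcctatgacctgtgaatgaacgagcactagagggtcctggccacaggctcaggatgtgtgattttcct
Mgll +23.4 kb (chr6:88747721-88747920): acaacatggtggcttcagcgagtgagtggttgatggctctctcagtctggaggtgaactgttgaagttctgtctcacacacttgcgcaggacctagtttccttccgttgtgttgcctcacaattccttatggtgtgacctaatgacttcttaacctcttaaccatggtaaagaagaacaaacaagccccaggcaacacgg
Mgll +32.7 kb (chr6:88756998-88757197): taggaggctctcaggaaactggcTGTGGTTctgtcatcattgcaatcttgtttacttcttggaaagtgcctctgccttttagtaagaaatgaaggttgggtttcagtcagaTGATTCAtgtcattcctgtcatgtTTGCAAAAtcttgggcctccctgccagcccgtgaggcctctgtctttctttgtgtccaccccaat
Cd200r3 +45.5 kb (chr16:44989095-44989294): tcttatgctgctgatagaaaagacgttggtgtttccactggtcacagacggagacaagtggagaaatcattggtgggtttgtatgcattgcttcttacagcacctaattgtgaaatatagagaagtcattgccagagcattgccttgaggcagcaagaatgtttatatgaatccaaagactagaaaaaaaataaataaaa
Cd200r3 +47.4 kb (chr16:44991014-44991213): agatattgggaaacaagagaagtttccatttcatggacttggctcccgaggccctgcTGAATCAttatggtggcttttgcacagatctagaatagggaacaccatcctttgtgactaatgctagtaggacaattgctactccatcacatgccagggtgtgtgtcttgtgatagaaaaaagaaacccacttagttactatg
Cd200r3 +86.1 kb (chr16:45029632-45029831): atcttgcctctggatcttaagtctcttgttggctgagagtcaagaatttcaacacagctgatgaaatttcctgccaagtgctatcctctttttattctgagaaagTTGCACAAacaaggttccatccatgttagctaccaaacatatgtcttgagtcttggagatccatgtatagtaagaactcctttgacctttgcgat
Cd200r3 +86.7 kb (chr16:45030234-45030433): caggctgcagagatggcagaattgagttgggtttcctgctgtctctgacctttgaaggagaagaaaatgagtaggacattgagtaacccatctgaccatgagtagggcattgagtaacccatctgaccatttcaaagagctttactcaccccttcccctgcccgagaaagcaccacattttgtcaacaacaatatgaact
None of the 8 sequences had another copy in the genome with at least 90% identity over 100 bp. A C/EBP match stood in the sequences Thbs1 upstream, Mgll +32.7 kb and Cd200r3 +86.1 kb, an AP-1 match in Mgll +32.7 kb and Cd200r3 +47.4 kb, a RUNX match in Mgll +32.7 kb and a KLF match in the Thbs1 promoter. Mgll +23.4 kb, Cd200r3 +45.5 kb and Cd200r3 +86.7 kb held none of the motifs searched. Over all 112852 regions, 14.9% held a C/EBP match in the same window, 16.1% an AP-1 match, 10.8% a RUNX match and 25.0% a KLF match, so a match is common.

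Across the 5 gene windows, 3 regions were gained, with a peak in all 3 MMF lists and in no control list, and 0 were lost. These were 3.41% of the 88 regions, beside 6% of all regions gained and 0.182% lost. A peak in MMF lists alone, in any number of them, was found at 26 regions (29.5%, beside 31.3% of all regions), and in control lists alone at 7 regions (7.95%, beside 7.02%). All 6 lists shared 30 of the 88 regions (34.1%, beside 36.5%). The share of gained regions was below that over the genome here, but above it at equal list length (2.90%, beside 2.35%) and without control sample 3 (7.95%, beside 7.37%). At equal list length these were 2 of 69 regions, Cd200r3 +86.1 kb and a region that was not gained in the full lists.

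Among the 30 shared regions, limma called 7 higher with MMF and 0 lower at an adjusted p of 0.05. At an unadjusted limma p of 0.05, 8 were higher and 0 lower, beside 11987 higher and 2624 lower of all 41182. The 7 were 23.3% of the shared regions, beside 21.7% called higher and 3.08% called lower over all shared regions. The median difference of the 30 was 0.12 on the log2 scale, beside 0.17 over all. Relative to the sample medians 4 of the 30 were higher (13.3%, beside 8.76%) and 9 lower (30.0%, beside 25.3%), so the split of calls turned with the scaling: 87.6% of all calls were higher on scaled heights and 25.7% on centred heights. On scaled heights the 7 calls lay in 3 windows, with 1 at Thbs1, 3 at Mgll and 3 at Cd200r3. Relative to the sample medians the 4 higher calls lay at Mgll (1) and Cd200r3 (3), and the 9 lower calls at Mgll (4), Lrg1 (3) and Serpine2 (2).

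**Figure D1:**
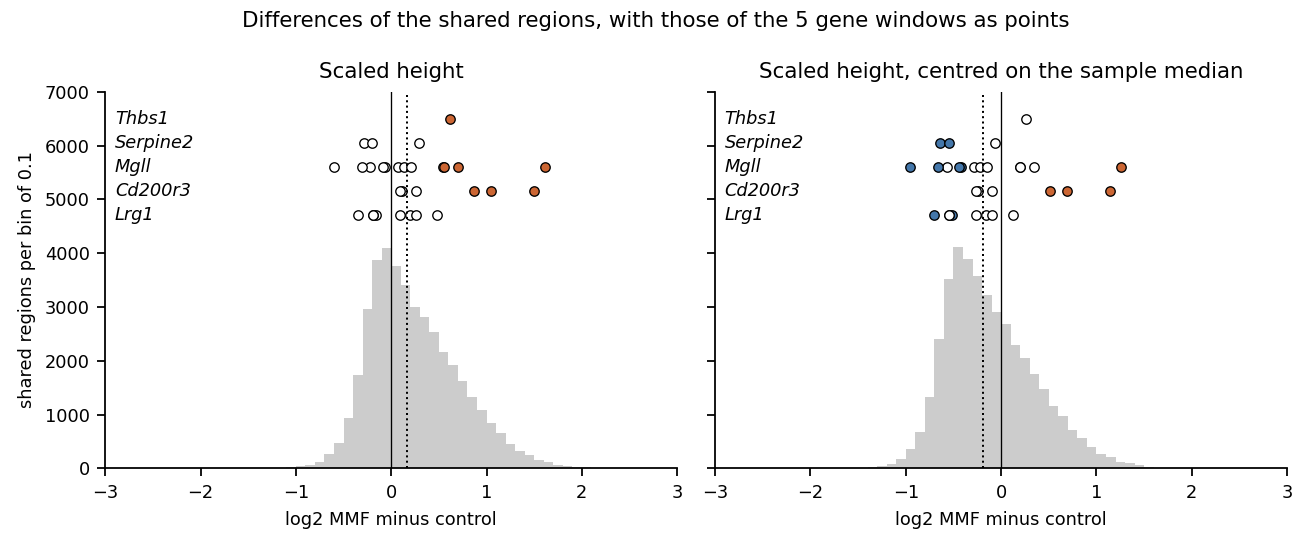
Log2 difference between MMF and control (x axis) of all 41182 shared regions as a histogram (y axis, regions per bin) and of the 30 shared regions of the gene windows as points, 1 row per gene at heights with no scale. Orange points were called higher and blue points lower by limma, open points were not called, the dotted line is the median of all shared regions, and the right panel shows the same after centring each sample on its median, where 4 points stay orange and 9 turn blue.

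Thbs1 (ENSMUSG00000040152.8, chr2:118111876-118127133, plus strand) codes for thrombospondin 1, a secreted matrix glycoprotein that binds CD36 and CD47 and can activate latent TGF-beta. Its promoter peak (chr2:118111112-118112072) reaches over the start, with the summit 0.6 kb upstream of it. Scaled heights there were 32.9, 23.1 and 37.1 without MMF, against 49.5, 46.7 and 44.3 with MMF. Every MMF sample lay above every control sample. The mean was 31.1 ± 7.16 in control and 46.9 ± 2.58 in MMF (SD, n = 3), which is 1.54-fold (95% confidence interval 1.14 to 2.06, limma, adjusted p = 0.0241). Relative to the sample medians the difference was 1.20-fold and was not called (adjusted p = 0.345). On scaled heights the call was lost without control sample 2 (adjusted p = 0.172), without MMF sample 1 (0.0968) or without MMF sample 2 (0.0651). The exact permutation test of this promoter gave p = 0.1, two-sided, the smallest that 3 samples against 3 allow.

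The other 4 regions around Thbs1 had peaks in MMF lists alone. The gained one (chr2:118102327-118102651), 9.3 kb upstream of the start and inside the noncoding gene Gm13986, had heights of 12.1, 11.3 and 10.3 in the MMF samples, from 11, 8 and 7 reads over the summit. These are weak peaks: 5 in 100 peaks of a list were lower than 8.23 to 9.67, by list. When every list was cut to its 58496 most significant peaks (equal list length), this region had no peak left in any list. Downstream of the gene, a region 15.7 kb from the start had heights of 12.7 and 19.2 in MMF samples 2 and 3, and those 16.3 and 46.4 kb from the start had a peak in a single MMF list.

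Mgll (ENSMUSG00000033174.17, chr6:88724412-88828360, plus strand) codes for monoacylglycerol lipase, which hydrolyses the endocannabinoid 2-arachidonoylglycerol. Among the 30 regions shared by all lists, the largest difference lay in an intron of Mgll 32.7 kb from the first start (chr6:88756757-88757413, shown above with its C/EBP, AP-1 and RUNX matches). The heights there were 20.6, 14.5 and 22.6 in control and 63.8, 56.7 and 53.2 in MMF, so that the lowest MMF value was well above the highest control value. They rest on 15, 10 and 14 reads in control and 58, 40 and 36 in MMF. The mean of 19.2 ± 4.23 in control stood against 57.9 ± 5.39 in MMF (SD, n = 3), or 3.06-fold (95% confidence interval 2.23 to 4.19, limma, adjusted p = 7.67e-08). It was 2.39-fold relative to the sample medians (adjusted p = 1.53e-05). This was the only region of the 5 windows called under every setting tried, with an adjusted p of at most 0.0353.

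A second intronic region, 22.2 kb from the start (chr6:88746228-88746829), rose from 43.9, 62.2 and 46.8 in control to 72.6, 83.6 and 90.2 in MMF. That is 1.62-fold (limma, adjusted p = 0.000728), and 1.27-fold and not called relative to the sample medians (adjusted p = 0.0916). The gained region of this window lies between these, 23.4 kb from the start (chr6:88747672-88747992), and had heights of 37.4, 22.7 and 25.1 in MMF. Its mean of 28.4 ± 7.89 (SD, n = 3) is above the median peak of every list, 20.6 to 22.6. The deposited fold enrichment there, over the local background, was 7.95, 4.11 and 4.99 in MMF. At equal list length the region was kept in 2 of the 3 MMF lists and in no control list.

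At the 3′ end of Mgll, in the UTR (chr6:88827984-88828415), control sample 2 alone had a peak in control, of 24.6, and the MMF samples had 39.6, 56.7 and 41.4. Beyond this end, a region 110.7 kb from the start (chr6:88834977-88835360), nearest to the start of Abtb1, had heights of 37.0, 53.5 and 41.9 in control and 71.5, 58.1 and 63.6 in MMF. It was called higher at 1.47-fold (limma, adjusted p = 0.0157), but not relative to the sample medians (1.15-fold, adjusted p = 0.400), nor without control sample 1 (adjusted p = 0.0966) or MMF sample 1 (0.104). The highest region of the window lies at the Abtb1 promoter, 284 bp from its start (chr6:88841709-88842950), and held 124.9, 160.5 and 145.1 in control and 119.9, 143.1 and 147.8 in MMF. These groups overlapped, and the fold of 0.96 was not called (95% confidence interval 0.81 to 1.12, limma, adjusted p = 0.735), but relative to the sample medians the region was called lower (0.75-fold, adjusted p = 0.00342).

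The promoter of Mgll itself was not among the regions that rose. Its peak (chr6:88724173-88725122, over the 5′ UTR of the gene) had heights of 20.6, 20.2 and 29.0 in control and 18.7, 19.8 and 20.7 in MMF, which overlapped (23.3 ± 4.97 against 19.7 ± 1.00, SD, n = 3, exact permutation test, two-sided, p = 0.3). On the deposited fold enrichment the MMF samples all lay below the control samples there (7.08, 6.73 and 8.70 against 6.01, 6.59 and 6.34, exact permutation test, p = 0.1, the smallest possible). In the Mgll window, 12 regions were shared by all lists, of which 3 were called higher and 9 were not called, and 14 of the 32 regions have their summit in an intron of the gene. Relative to the sample medians, 1 of the 12 was higher and 4 were lower, and none of those 4 was called on scaled heights.

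**Figure D2:**
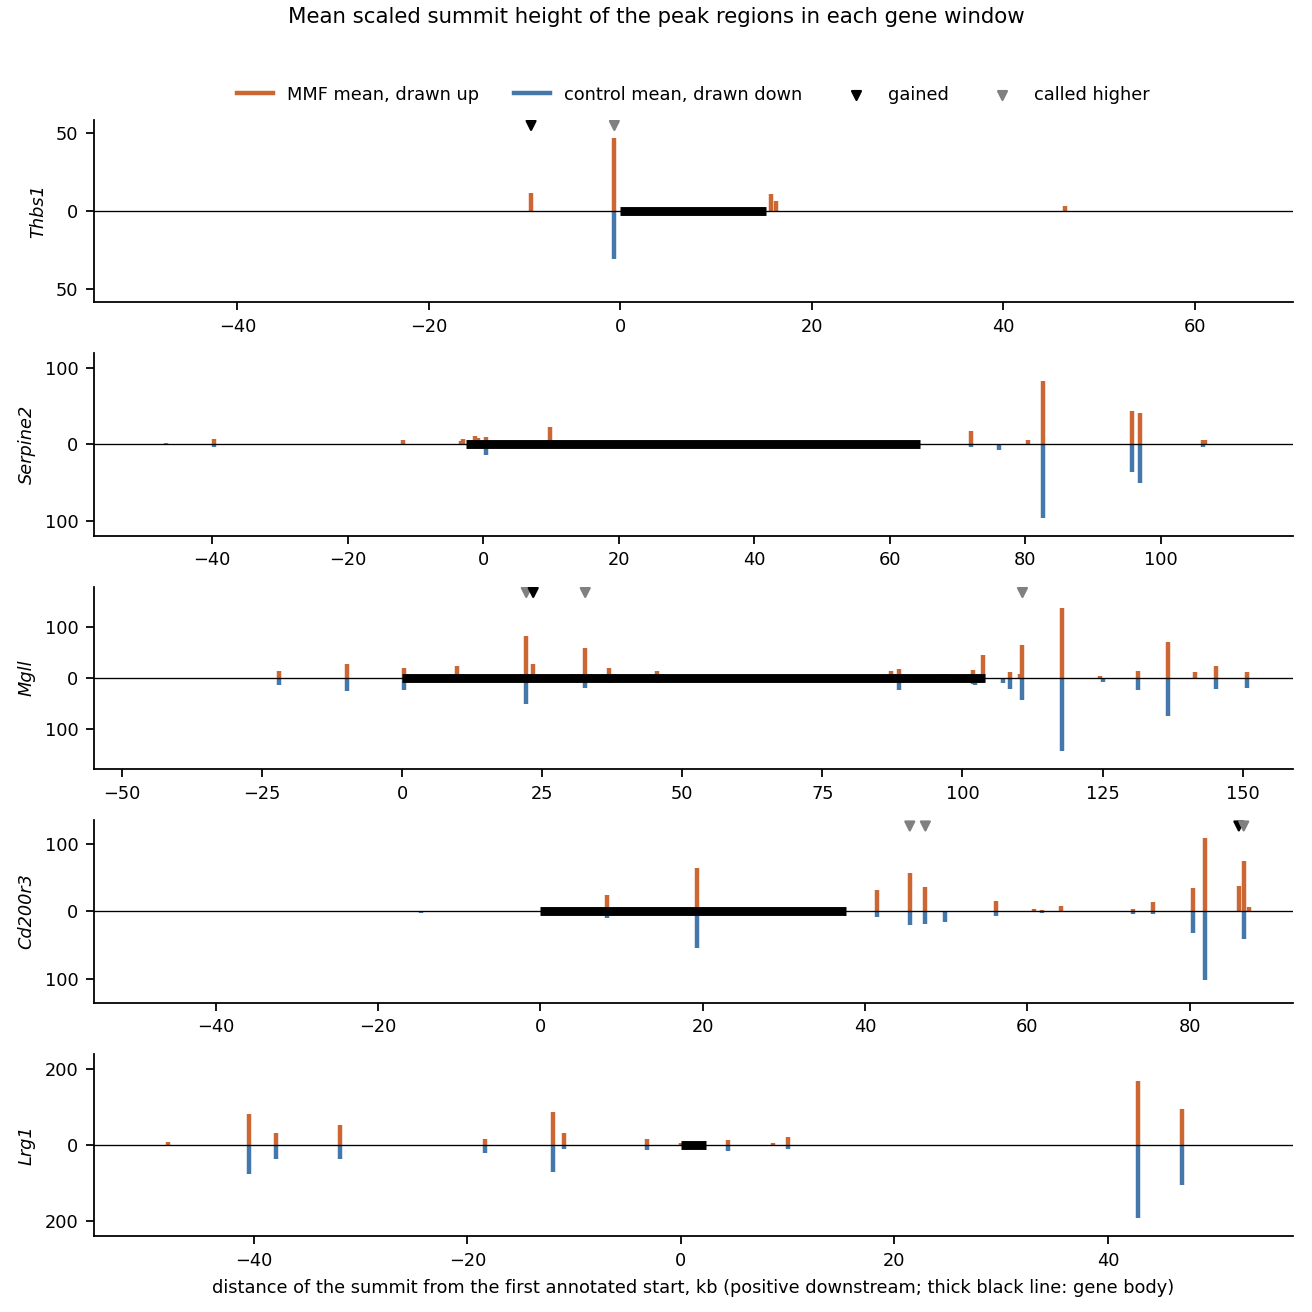
Mean scaled summit height of every region (y axis) against the distance of its summit from the first start of the gene (x axis, kb), with the MMF mean drawn upward in orange and the control mean downward in blue. A list without a peak counts as 0, the thick black line is the gene body, black triangles mark the 3 gained and grey triangles the 7 higher regions, which lie in the windows of Thbs1, Mgll and Cd200r3.

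Cd200r3 (ENSMUSG00000036172.17, chr16:44943678-44981380, plus strand) codes for an activating member of the CD200 receptor family, known from mast cells and basophils. No list had a peak within 1000 bp of any of its 5 annotated starts. The differences lay instead downstream of the gene, between protein-coding genes, where the nearest start was that of Cd200r3 at +45.5 and +47.4 kb and that of Ccdc80 at +86.1 and +86.7 kb. The region at +45.5 kb (chr16:44988654-44989400) had heights of 20.6, 24.6 and 16.1 in control and 48.4, 70.8 and 53.2 in MMF. No MMF sample reached down to the control range. The mean was 20.4 ± 4.23 against 57.5 ± 11.8 (SD, n = 3), which is 2.82-fold (95% confidence interval 2.06 to 3.85, limma, adjusted p = 4.21e-07) and 2.20-fold relative to the sample medians (adjusted p = 6.47e-05).

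At +47.4 kb (chr16:44990965-44991295) the heights were 13.7, 13.0 and 27.4 in control and 37.4, 41.1 and 28.1 in MMF. The groups came close, with the highest control sample just below the lowest MMF sample. The difference was 2.07-fold (limma, adjusted p = 0.00196) and 1.62-fold relative to the sample medians (adjusted p = 0.0364). On centred heights this call was lost without control sample 1 (adjusted p = 0.157), control sample 2 (0.182), MMF sample 1 (0.125) or MMF sample 2 (0.121).

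Farther downstream, 2 neighbouring regions both changed. The gained one at +86.1 kb (chr16:45029580-45029845) had heights of 35.2, 42.5 and 37.0 in MMF and was the only gained region of the 5 windows kept at equal list length. Its deposited fold enrichment was only 3.80, 5.06 and 4.27 in MMF, as the local background was high. A control sample could therefore hold reads in this region without a called peak. Beside it at +86.7 kb (chr16:45029997-45030533), heights were 42.5, 46.3 and 33.9 in control and 74.8, 80.7 and 66.5 in MMF, without overlap. This is 1.82-fold (limma, adjusted p = 0.000104) and 1.42-fold relative to the sample medians (adjusted p = 0.0179). On centred heights this call was lost without control sample 3 (adjusted p = 0.0870), MMF sample 1 (0.0667) or MMF sample 2 (0.0572).

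The Cd200r3 calls also depended on the measure. On the deposited fold enrichment, which adds 1 to the reads and to the local background, none of the 3 passed (adjusted p of 0.0662 at +45.5 kb, 0.552 at +47.4 kb and 0.231 at +86.7 kb), though each stayed higher with MMF. A further region at +41.4 kb (chr16:44984920-44985360) had peaks of 15.1 and 9.67 in control samples 1 and 3, none in control sample 2, and 31.9, 36.8 and 25.1 in MMF, and so could not be tested with the shared regions. The other shared regions of the window differed less. The highest, at +81.9 kb (chr16:45025328-45025807), had heights of 93.3, 101.2 and 108.0 in control and 127.6, 94.9 and 102.0 in MMF (1.07-fold, limma, adjusted p = 0.664), and an intronic region at +19.3 kb had 65.9, 49.2 and 46.8 against 67.1, 59.5 and 65.0 (1.20-fold, adjusted p = 0.283). Both pairs of groups overlapped. The edge of the window fell in this stretch: the last region inside it, 49.5 kb past the gene, had a peak in MMF sample 1 with a height of 20.9, and the first outside, 51.3 kb past the gene, had peaks in 2 lists with heights of 20.7 and 26.4.

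**Figure D3:**
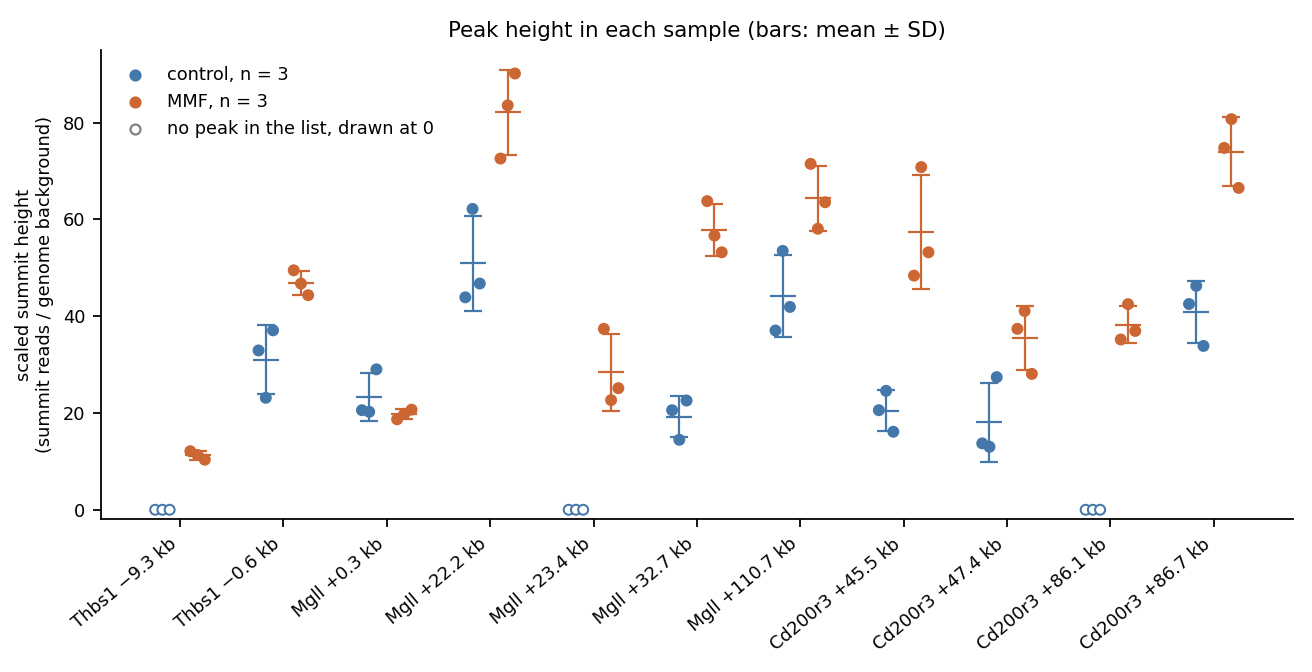
Scaled summit height (y axis) in each of the 3 control (blue) and 3 MMF (orange) samples at the gained regions, the regions called higher and the promoters of Thbs1 and Mgll (x axis, gene and distance of the summit from the start), with the mean and SD as bars and open circles at 0 for lists without a peak. Control and MMF samples do not overlap except at the Mgll promoter at +0.3 kb. This follows largely from the choice of regions, as gained regions have no control peak and the other regions without overlap were called higher.

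Serpine2 (ENSMUSG00000026249.10, chr1:79794197-79861180, minus strand) codes for protease nexin 1, a secreted inhibitor of thrombin and plasminogen activators. Of its 19 regions, 3 were shared by all lists and 16 were present in some of them, with no gained or lost region and no call. At its promoter, the highest peak within 1000 bp of the start was 12.3, 13.0 and 14.5 in control and 14.3, 14.2 and 14.8 in MMF. The value of MMF sample 1 came from a neighbouring region (chr1:79859347-79859642), since this sample had no peak in the one used for the others (chr1:79858129-79858770). The means of 13.3 ± 1.11 and 14.4 ± 0.324 (SD, n = 3) did not differ beyond the spread (exact permutation test, two-sided, p = 0.3), and the sign turned with the measure: on the deposited fold enrichment all MMF samples lay below the control samples (means of 5.09 in control and 4.34 in MMF), and at equal list length the promoter had no peak in any MMF list. These promoter peaks are weak, with 9 or 10 reads over the summit in the main region. The start used is that of the protein-coding transcript (chr1:79858696), while the gene body reaches farther upstream, to 79861180. Near that end, MMF sample 1 had a peak of 19.8 (chr1:79861704-79861866) and MMF sample 2 one of 14.2 (chr1:79861902-79862051). No control sample had a peak in either region.

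Inside the gene, an intronic region 9.8 kb from the start (chr1:79848735-79849042) had heights of 17.6, 24.1 and 25.1 in the MMF samples, a single weak peak of 5.78 in control sample 2 and none in the other control samples. It misses the definition of a gained region by that peak. The 3 shared regions of the window belong to neighbouring genes. The highest lies at the starts of Mrpl44 and Wdfy1 (chr1:79775732-79776462), with 94.7, 105.6 and 87.1 in control and 83.6, 93.5 and 73.9 in MMF (0.87-fold, limma, adjusted p = 0.325). Relative to the sample medians this region was called lower (0.68-fold, adjusted p = 0.00127), as was the region 30 bp from a start of Wdfy1 (0.64-fold, adjusted p = 0.00575).

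Lrg1 (ENSMUSG00000037095.8, chr17:56119678-56122001, minus strand) codes for a secreted leucine-rich glycoprotein stored in neutrophil granules that modulates TGF-beta signalling. Its own promoter had a peak in a single list, MMF sample 3, with a height of 11.8 from 8 reads. The window holds 7 neighbouring protein-coding genes, and 8 of its 14 regions were shared by all lists, with none gained or lost and none called on scaled heights. The highest, 415 bp from a start of Hdgfl2 (chr17:56078890-56079753), had heights of 204.4, 195.2 and 175.8 in control and 151.8, 184.2 and 170.0 in MMF. These groups overlapped (0.88-fold, limma, adjusted p = 0.201), and relative to the sample medians the region was called lower (0.69-fold, adjusted p = 4.38e-05). The shared region closest to Lrg1, 3.1 kb upstream in an intron of Sema6b, had 12.3, 13.0 and 12.9 in control and 16.5, 12.7 and 14.8 in MMF (1.14-fold, adjusted p = 0.681). A region 33 bp from a start of Sema6b (chr17:56139897-56140622) was lower in every MMF sample, with a mean of 20.6 ± 0.358 in control and 16.2 ± 1.3 in MMF (SD, n = 3), but was not called on scaled heights (0.79-fold, limma, adjusted p = 0.394). Relative to the sample medians it was called lower (0.62-fold, adjusted p = 0.0417), as was the region 9 bp from a start of Ubxn6 (0.70-fold, adjusted p = 0.00175).

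Every MMF list had more peaks than every control list in the windows of Thbs1 (2, 1 and 2 in control, 3, 5 and 5 in MMF), Cd200r3 (12, 9 and 10 against 15, 13 and 13) and Lrg1 (10, 11 and 12 against 15, 14 and 15). The same was true of 39.5% of all gene windows with a peak, as the MMF lists are longer. The Mgll window had 21, 19 and 19 peaks in control and 22, 23 and 21 in MMF, and the Serpine2 window 4, 9 and 9 against 11, 17 and 8, where the groups overlapped. At equal list length only the Cd200r3 window kept more peaks in every MMF list (10, 9 and 10 in control, 11, 11 and 11 in MMF), beside 5.24% of all windows. With 10 kb instead of 50 kb on either side, the windows that separated were those of Thbs1 and Mgll (14, 12 and 12 against 15, 16 and 15), while Cd200r3 (5, 4 and 5 against 5, 6 and 6) and Lrg1 overlapped. The exact permutation test gave p = 0.1 for each window without overlap, the smallest possible with 3 samples against 3.

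**Figure D4:**
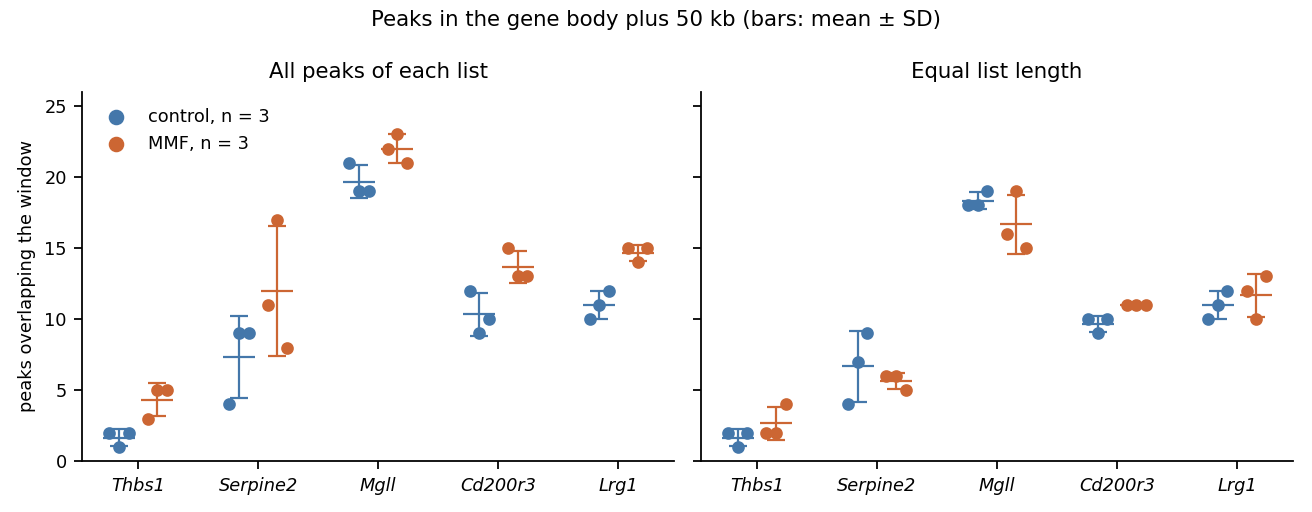
Peaks overlapping each gene window (y axis, number per list) in control (blue) and MMF (orange) lists for each gene (x axis), with all peaks on the left and the same number of peaks from every list on the right. Bars are the mean and SD of 3 lists, and at equal length only the Cd200r3 groups stay apart.

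Promoters of genes related to the 5 were counted by whether every MMF height lay above, or below, every control height, which was so in the higher direction for 7.64% and in the lower direction for 15.2% of the 13881 genes with a promoter peak. Of the thrombospondins and their receptors, 1 of 5 with a peak was higher, Thbs1 itself. Cd47, a receptor that binds thrombospondin 1, had 131.7, 102.7 and 111.3 in control and 108.9, 127.5 and 105.0 in MMF, which overlapped, and Thbs2 and Thbs4 had no promoter peak. Of the serpins of the Serpine2 family and their proteases, 1 of 7 was higher and 1 lower. The higher one was Plaur, the urokinase receptor (30.2, 27.5 and 32.2 against 38.5, 36.8 and 38.4), and the lower one Plau, urokinase itself (16.5, 15.9 and 16.1 against 11.0, 11.3 and 14.8). Of the genes of 2-arachidonoylglycerol metabolism, 0 of 6 was higher and 0 lower, and the cannabinoid receptor genes Cnr1 and Cnr2 had no promoter peak. Of Lrg1, TGF-beta and its receptors, 0 of 5 was higher and 0 lower.

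In the CD200 family, 1 of 3 promoters with a peak was higher. This was Cd200r4, another activating receptor of the family, with 17.8 and 10.1 in control samples 1 and 2, no peak in control sample 3, and 34.1, 36.8 and 32.5 in MMF. Cd200r2, whose gene reaches into the Cd200r3 window, had no promoter peak, like Cd200r3. Among the 39 genes that the study lists as upregulated in RNA by MMF, 36 were matched and 30 had a promoter peak, of which 16 were higher and 0 lower. The study chose this list on RNA of MMF-treated LSCs, so the count is not independent evidence of its direction, and S100a8, S100a9 and Ngp are also on the list of neutrophil markers used below. Of the 5 genes described here only Thbs1 was among the 16. Its members Stfa1, Cstdc4 and Csta2, as well as Pilrb1 and Pilrb2, are close paralogs, so reads may not be uniquely placed among them.

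The labelled cell type was checked by promoter peaks of marker genes. Of 8 markers of leukemic granulocyte-macrophage progenitors, 7 had a peak and Mpo had none. Hoxa9 and Meis1, homeobox genes driven by MLL fusions, were lower in every MMF sample (63.1, 69.4 and 64.5 against 48.4, 53.8 and 51.7 for Hoxa9), while Fcgr3, Elane and Ctsg were higher, and the summed height of the list was 274.4 to 296.7 in control and 315.7 to 372.6 in MMF. Neutrophil markers moved the other way from the Hox genes: 6 of 7 (Ltf, Camp, Ngp, Lcn2, S100a8 and S100a9) were higher in every MMF sample, and the summed height of the list was 102.7 to 135.8 in control and 267.6 to 286.1 in MMF. These genes code for granule and calcium-binding proteins of neutrophils, and Lrg1 is known from the same cells. Their part in the differences around Thbs1, Mgll and Cd200r3 was not tested, and fewer cells of one kind cannot be told apart from less signal per cell in such bulk samples.

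Of 5 macrophage markers, Csf1r was higher, C1qa had no peak and the summed height was 163.3 to 182.2 in control and 211.2 to 224.7 in MMF. Basophil and mast cell markers, of interest for Cd200r3, did not separate the groups. Of the 7, Fcer1a, Ms4a2, Cpa3 and Prss34 had no peak. The 3 with a peak had it in all 6 lists, and their groups overlapped. Mcpt8 had 64.5, 57.8 and 58.0 in control and 62.7, 69.4 and 72.4 in MMF. Means in control and MMF were 32.7 and 30.1 for Gata2, and 14.4 and 14.3 for Hdc. The summed height of the list was 104.8 to 109.8 in control and 107.8 to 115.3 in MMF. Of 5 erythroid markers (Hba-a1 without a peak), 0 was higher or lower, with a summed height of 122.1 to 150.0 in control and 129.8 to 136.0 in MMF. The 4 B cell and 4 T cell markers had no peak in any list.

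The promoters most alike in pattern to those of the genes were found by the Euclidean distance between log2 heights over the 6 samples, each gene less its own mean, among 11646 other genes with a promoter peak in every list. For Thbs1 these were Adora3, Gna15 and S100a2 (distances of 0.15, 0.18 and 0.21), for Serpine2 they were Rpl23a, Galnt1 and Cd68 (0.059, 0.065 and 0.070), and for Mgll they were Washc3, Plek and Anln (0.071, 0.14 and 0.15). Gna15, a G protein subunit of blood cells, had 24.7, 18.8 and 27.4 in control and 41.8, 36.8 and 32.5 in MMF.

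Over the 88 regions, a C/EBP match was found in the 200 bp around the summit of 12 (13.6%, beside 14.9% of all regions), an AP-1 match in 16 (18.2%, beside 16.1%), a KLF match in 22 (25.0%, beside 25.0%) and a RUNX match in 8 (9.09%, beside 10.8%). PU.1 (GAGGAAGT) was matched in 9 (10.2%, beside 8.27%). The motif of GATA factors, AGATAAG, was matched in 6 (6.82%, beside 1.88%), of which 3 lay in the Serpine2 window. NF-Y (CCAATCA) and ELK (CCGGAAGT) were matched in 0 of the 88 regions, beside 3.56% and 1.30%. Of the 10 gained or higher regions, 3 held a C/EBP match, 2 each an AP-1, a RUNX or a KLF match, and 0 a PU.1 or GATA match. The 10 are mostly shared regions called higher, so the gained regions of the series are not a like set. Over all gained regions of the series, the share with a match was 23.4% for C/EBP, 16.8% for AP-1 and 12.4% for RUNX. It was 15.7% for KLF, 9.38% for PU.1 and 1.79% for GATA. A match is a description of these letters, not a bound site.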

How the data were processed

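Per the labels and methods, LSCs were sorted, tagmented and sequenced, and the authors processed each sample on its own with FastQC, Trim Galore, Bowtie2 (mm10) and MACS2 (versions and options not given in the sources used here). Each of the 6 lists, as deposited, gives fold enrichment as a ratio, p and q as −log10 values and a score, which was not used. Replicates were not pooled. The genes, lists and tests were chosen with earlier results of these data known.

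Peaks on chromosomes 1 to 19, X and Y were merged into regions at an overlap of at least 1 bp, and no peak ran past a chromosome end. Summit reads were solved from fold enrichment, (reads + 1) / (background + 1), and the Poisson p. All peaks gave whole reads to within 0.05. The heights of shared regions entered a linear model with an eBayes trend (limma 3.58.1, R 4.3.3), with Benjamini-Hochberg adjustment over 41182 regions. On simulated data of this region number, with only 200 regions shifted, 10 of the 200 were called at a shift of 0.5 (log2). At 1 it was 111 and at 1.5 it was 189, with 1, 2 and 8 calls at unshifted regions. Far more regions were called in the data, 8953 higher and 1270 lower. The adjustment is less strict there, so these shares do not carry over. A promoter spanned 1000 bp to each side of any basic GENCODE M21 protein-coding start, with 0 where a list had no peak, and was tested by exact permutation.

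Between samples of a group, the chi-square of summit reads per region was taken over the shared regions, where 1 is counting noise. It was 0.640 to 0.916 below the 90th percentile of height and 0.983 to 1.38 above it, and none of the 6 pairs stood apart. Shared regions need a called peak in every list, which leaves out low counts. The values therefore cannot show how alike the samples are. No pair of lists shared over 681 intervals. Described one by one were promoter regions, those gained, lost or called, and the highest of each window, with other genes named as nearest start. The Serpine2 region at 9.8 kb and other regions with a peak in some lists only, and Cd47, Gna15 and the Sema6b and second Wdfy1 regions, were named after their values were seen. Motifs were searched in GRCm38.p6 with pysam 0.24.0, and copies with BLAST 2.17.0. The alternatives are given below. Reads and RNA were not analysed here, and 1 marker list is not reported here.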

Additional observations from a re-analysis of the deposited data

How the results depend on the processing

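The count of gained regions, 3 of 88, was 4 at a stricter q (4.65%, beside 6.40% of all regions) and 2 at equal list length. It was 5 when a peak had to cover 50% of the region (5.68%, beside 6.79%), an alternative added after seeing the data. It was 10 when 2 of 3 lists were enough (11.4%, beside 13.6%). It was 3 to 8 when 1 sample was left out: 6 without control sample 2 (6.82%, beside 7.79%), 7 without control sample 3 (7.95%, beside 7.37%), 5 without MMF sample 1 (5.68%, beside 8.05%) and 8 without MMF sample 3 (9.09%, beside 9.34%). Lost regions numbered 1 at equal list length (1.45%, beside 1.37% of all regions) and 4 with 2 of 3 lists (4.55%, beside 1.023%). They numbered 0 to 2 when 1 sample was left out: 2 without control sample 1 (2.27%, beside 0.440%). Without control sample 2 or 3 there was 1 (1.14%, beside 0.429% and 0.518%). Without MMF sample 1, 2 or 3 there were 0, beside 0.416%, 0.365% and 0.309%. The share was above that of all regions wherever a region was lost, but it rested on 1 to 4 regions. The planned overlap rule of 50% of region or peak changes nothing by construction, as every peak lies in its own region.

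The count called higher, 7, was 4 on centred heights, 4 at equal list length with centring, 1 on normal scores of the rank (3.33%, beside 5.83% of all shared regions) and 1 on fold enrichment (3.33%, beside 13.4%), 5 with no trend, which ended the calls at the Thbs1 promoter (adjusted p = 0.0552) and at Mgll 110.7 kb (0.0652), 5 to 8 without a sample, and 2 to 5 when centred and without a sample (2 without MMF sample 1 or 2). The count called lower, 0, was 9 when centred, 6 when also at equal list length, 0 to 1 without a sample (1 without control sample 1) and 5 to 7 when centred and without a sample. The combinations with centring were added after seeing the data. With 10 kb instead of 50 kb on either side, 6 of 12 shared regions were higher (50%, beside 21.7%) and 0 lower. At equal list length without centring, 7 of 25 were higher (28%, beside 24.8%) and 0 lower. With the replicate block, 7 were higher and 0 lower, and 4 and 9 when centred. The deviations of same-numbered samples had correlations of -0.0013, 0.0039 and -0.0025. These correlations cannot decide whether the numbers pair the samples, since how far samples of a group differ beyond counting noise is not known. The block changed none of these counts.

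The number of the 5 genes with a separated, higher promoter, 1, was 0 on rank or fold enrichment, where Serpine2 and Mgll were lower in every MMF sample, 2 with promoters of 2000 bp (Serpine2 added), and 1 to 2 when 1 was left out, 2 without control sample 3. Windows with more peaks in every MMF list, 3, fell to 1 at equal list length, were Thbs1 and Mgll with 10 kb on either side, and were 3 to 5 when 1 was left out, 5 without MMF sample 3. Regions with a C/EBP match numbered 7 in 100 bp and 19 in 400 bp. The causes were not tested. Depth limits weak peaks: a missing peak is below the calling threshold and is not a height.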
